A study of Mus musculus with 7 samples.

Results

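Interferon-stimulated genes are genes that cells transcribe when an interferon binds its receptor. A list of 34 such genes was described here, and all 34 were found by symbol among the 22552 gene symbols of an RNA sequencing table of mouse skin at postnatal day 50. The table holds 7 libraries from cells purified by flow sorting, 1 library for each group. Cells of both skin layers of the ear were taken from wild-type mice (genotype Wt/Wt, called WT) and from mice with 1 Koa allele (genotype Wt/Koa, called Koa), a dominant allele known for hairy ears. Cells of both layers of dorsal skin, and of tail dermis, were taken from WT mice only. The labels do not say how many animals gave each library or which marker the sort used. The strain label CD1/C3H is shared by all 7 libraries. With 1 library a group, differences below are not set against the spread between animals. The 6 ear and dorsal libraries form 3 pairs of layers, and a limma fit of layer and site over them leaves 2 residual degrees of freedom. Its spread is how far the layer difference varies between sites, and layers or sites may share animals, so its p-values say nothing of other animals.

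Interferons of type I (alpha, beta, kappa and others) and of type II (gamma) are secreted by infected or activated cells. Type I receptors act through a complex that includes Stat2 and Irf9 and binds a promoter element called ISRE, and the gamma receptor acts through an element called GAS. The induced proteins sense viral RNA, block its translation, trap virions or attack the vacuoles of intracellular pathogens. In skin, keratinocytes, fibroblasts and immune cells can all respond.

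The signal is read at promoters, so their sequence is shown first. RefSeq (GRCm38.p6) gave promoter sequence for 27 of the 34 genes. In the 250 bases before the start, the ISRE core (GAAA, any 2 bases, GAAA) was found on either strand in 13 of the 27 genes. It stood in 13 of their 31 promoter entries (41.9%), against 2.98% of all 32851 RefSeq promoters of that length. The GAS motif (TTC, any 3 bases, GAA), which is its own reverse complement, was found in 6 of the 27 genes, in 19.4% of their entries against 7.02% of all, and 3 genes held both motifs. The 6 genes with the highest summed level among those with the ISRE core are shown 5′ to 3′ on the strand of the gene, the last base being the one before the start. Capitals mark the ISRE core or its reverse complement (TTTC, any 2 bases, TTTC), and overlapping matches run together. A match is a description and not a binding site.
Isg15: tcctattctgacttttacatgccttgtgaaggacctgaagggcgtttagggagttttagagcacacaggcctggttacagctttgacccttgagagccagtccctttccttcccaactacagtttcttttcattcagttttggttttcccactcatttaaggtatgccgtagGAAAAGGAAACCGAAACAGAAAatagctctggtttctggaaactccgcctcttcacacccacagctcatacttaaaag
Bst2: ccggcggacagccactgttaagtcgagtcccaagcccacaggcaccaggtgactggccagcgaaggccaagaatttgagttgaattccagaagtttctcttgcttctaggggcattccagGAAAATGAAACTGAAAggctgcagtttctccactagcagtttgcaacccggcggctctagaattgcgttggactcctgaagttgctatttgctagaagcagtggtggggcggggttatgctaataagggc
Gbp2: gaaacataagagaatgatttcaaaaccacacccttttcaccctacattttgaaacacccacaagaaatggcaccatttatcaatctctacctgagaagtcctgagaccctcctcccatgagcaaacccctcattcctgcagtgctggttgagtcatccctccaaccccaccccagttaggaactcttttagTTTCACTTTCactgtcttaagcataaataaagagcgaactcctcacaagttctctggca
Irgm1: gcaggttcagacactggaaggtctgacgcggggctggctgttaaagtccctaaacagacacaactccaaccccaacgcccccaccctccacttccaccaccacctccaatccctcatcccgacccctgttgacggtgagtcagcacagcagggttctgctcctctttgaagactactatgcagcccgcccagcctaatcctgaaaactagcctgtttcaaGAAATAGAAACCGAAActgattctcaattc
Ifitm2: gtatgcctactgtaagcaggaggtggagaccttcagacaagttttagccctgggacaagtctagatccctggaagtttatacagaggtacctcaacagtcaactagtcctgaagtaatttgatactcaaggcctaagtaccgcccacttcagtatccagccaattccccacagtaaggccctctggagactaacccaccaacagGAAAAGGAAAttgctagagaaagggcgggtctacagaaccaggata
Stat2: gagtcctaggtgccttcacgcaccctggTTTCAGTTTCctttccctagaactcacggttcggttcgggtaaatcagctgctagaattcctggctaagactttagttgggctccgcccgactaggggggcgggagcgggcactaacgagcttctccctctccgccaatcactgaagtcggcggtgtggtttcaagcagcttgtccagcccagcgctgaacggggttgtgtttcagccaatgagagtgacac

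The windows are chr4:156200819-156201068 (minus strand) for Isg15, chr8:71537473-71537722 (minus) for Bst2, chr3:142620413-142620662 (plus) for Gbp2, chr11:48871421-48871670 (minus) for Irgm1, chr7:140955962-140956211 (minus) for Ifitm2 and chr10:128270248-128270497 (plus) for Stat2. Isg15 has 3 overlapping cores, the first beginning 78 and the last 66 bases before the start, and Bst2 and Irgm1 each have 2 that overlap. In Stat2 the single core begins 222 bases before the start, and in Gbp2 59 bases before it. As the values below show, Isg15, Bst2 and Gbp2 differed between dorsal and ear skin, whereas Irgm1, Ifitm2 and Stat2 differed less.

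Levels are given in FPKM, fragments divided by transcript length and by the depth of the library, so that levels of different genes can be compared. The depth recovered from steps in the low values lay between about 31700000 and 40400000 fragments in 6 libraries, and the tail library, rounded to 2 decimals, allowed no such recovery. The tail column also lists 222 symbols at 0 that reached 10 FPKM or more in each of the other 6 libraries, although none of the 34 genes is among them. Tail dermis held Xist at 41.5 FPKM, where no other library exceeded 0.122 FPKM, and the Y-linked Ddx3y at 0 against 33.1 to 38.3 FPKM, so sex and site cannot be told apart for the tail. Hoxc8, a Hox gene, stood at 10.2 FPKM in Koa and 0.241 in WT ear dermis, and at 29.5 FPKM in dorsal and 1.32 in tail dermis. The summed level of 6 fibroblast markers lay between 5147 and 10712 FPKM in dermal and between 29.2 and 44.1 FPKM in epidermal libraries. Dermal libraries also held RNA of 8 basal keratinocyte markers, whose median share of the level in the matching epidermis was 8.0% in WT ear dermis, 11.6% in Koa ear dermis and 40.7% in WT dorsal dermis. A difference between such bulk libraries may come from fewer cells of a type or from less RNA per cell, and these cannot be told apart.

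The interferon-stimulated genes were low in epidermis of the ear and higher in dermis, with the highest levels in dorsal dermis. WT dorsal dermis was the library with the highest value for 24 of 34 genes, and WT ear epidermis that with the lowest for 26. The median level of the 34 genes was 0.422 FPKM in WT ear epidermis, 0.915 in Koa ear epidermis, 3.43 in WT dorsal epidermis, 4.17 in WT ear dermis, 5.65 in Koa ear dermis, 7.96 in WT dorsal dermis and 2.45 in WT tail dermis. At least 1 FPKM was reached by 14 genes in WT ear epidermis and by 33 in WT dorsal dermis. In WT ear epidermis, 10 genes stood below 0.1 FPKM.

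**Figure D1:**
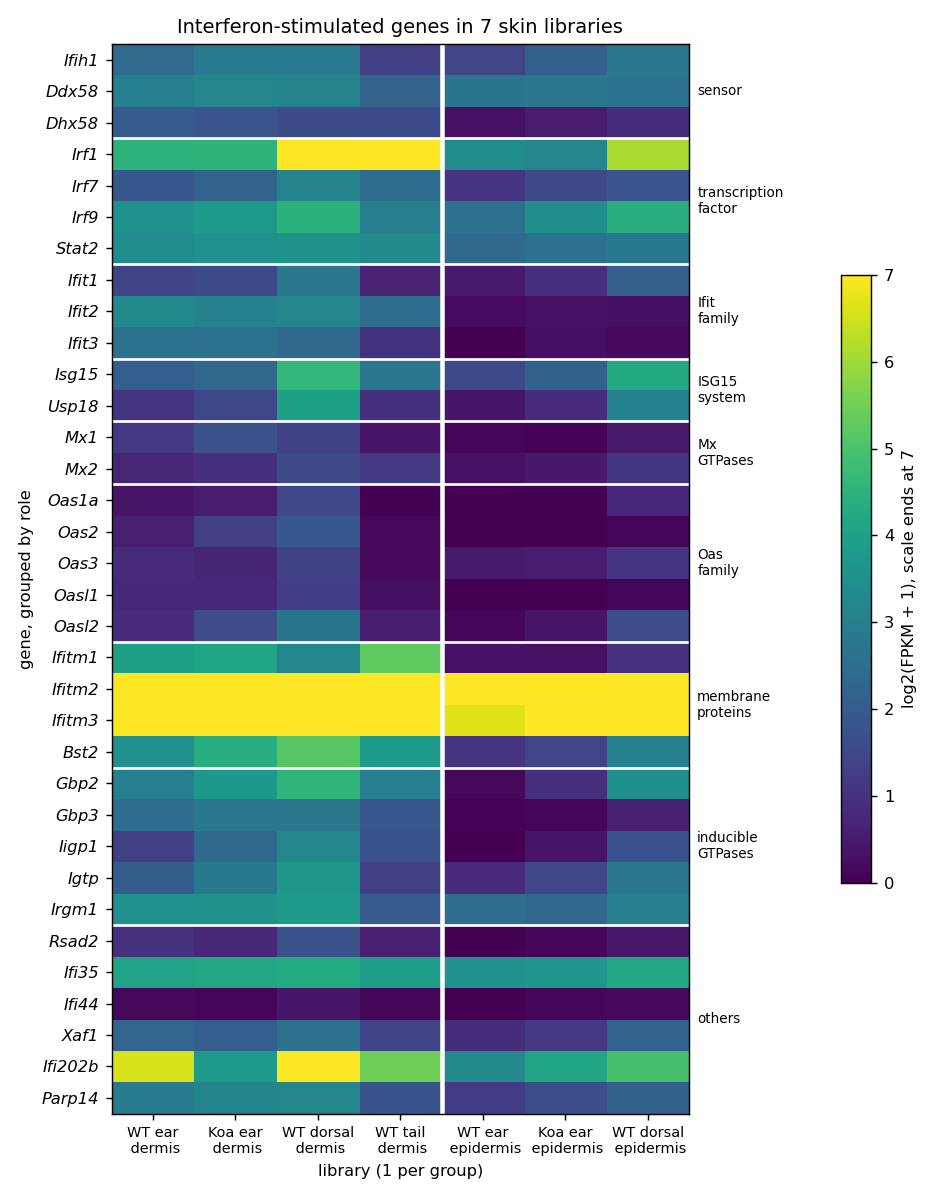
Levels of the 34 genes (rows, grouped by role) in the 7 libraries (columns, 1 library each), as log2(FPKM + 1) by colour, with dermis left and epidermis right of the white line and values above 7 drawn as 7. Ifitm2 and Ifitm3 are bright in every library, while most Oas genes are dark in ear epidermis.

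The level ranged widely between genes. The membrane proteins Ifitm2 and Ifitm3, which hinder the fusion of viral with cellular membranes, were the most abundant in all 6 ear and dorsal libraries. Ifitm2 stood at 452 FPKM in WT ear dermis, 440.4 in Koa ear dermis, 368 in WT dorsal dermis, 753 in WT tail dermis, 269 in WT ear epidermis, 225 in Koa ear epidermis and 245 in WT dorsal epidermis. Ifitm3 stood between 102 (WT ear epidermis) and 601 FPKM (WT tail dermis). Both were thus at over 100 FPKM in each library. Ifi44 was the lowest, at most 0.343 FPKM (WT dorsal dermis), about 30 fragments, and it entered none of the comparisons below.

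Each pair of libraries was compared on the log2(FPKM + 1) scale. Genes with at least 1 FPKM in either library were compared, and a gene with a difference of at least 1 on that scale is called higher or lower by the size rule. Adding 1 FPKM understates the change of genes at low levels. The same rule was run over all genes of the table, and the share past it is given as the background. Ratios of FPKM carry exact (Clopper-Pearson) 95% intervals from the recovered fragment counts, and these intervals cover counting error only.

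The first comparison asked how dermis and epidermis of the same site differ. Interferon-stimulated genes were higher in dermis at all 3 sites. In WT ear, 26 of the 34 genes could be compared, 17 were higher in dermis and none lower (background 35.6% of 13840 genes past the rule, 21.3% higher and 14.4% lower). In WT dorsal skin 14 of 33 were higher and none lower (background 24.4%, or 16.1% and 8.27%), and in Koa ear 15 of 28 and none (background 33.1%, or 20.4% and 12.7%). The median difference was 1.17, 0.90 and 1.25, where that of all genes compared was -0.09, -0.14 and -0.11. Over all 34 genes of the list the median was 1.00, 0.88 and 0.91. In the 3 epidermal libraries 14, 23 and 16 genes reached 1 FPKM. The rest of the genes compared entered through their dermal level and could not be lower in dermis. With 5 FPKM added in place of 1, the genes past the rule were 7 of 26, 4 of 33 and 6 of 28, all higher. The background was 20.9%, 13.6% and 19.1%, or 11.8%, 8.56% and 11.5% higher. In WT dorsal skin the 4 of 33 are near that share. The 3 comparisons share no library.

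Over the 3 pairs, the limma fit called 24 of 33 genes higher in dermis and none lower at an adjusted p of 0.05 (Benjamini-Hochberg over 14760 genes; background 52.4%, 23.2% higher). Ifit2 had the lowest adjusted p among them in limma, 0.0019, with a difference of 2.94 ± 0.15 (SE, 3 pairs), higher in dermis in 3 of 3. The 9 genes that limma did not call were Ifih1, Irf9, Isg15, Mx2, Oas1a, Oas3, Ifitm3, Ifi35 and Ifi202b. Ifi202b had a difference of 1.69 ± 0.77 (SE) and an adjusted p of 0.136 in limma. The count fell to 8 without WT ear, where 1555 of 14577 genes of the whole table were higher. It fell to 5 without Koa ear (809 of 14588) and was 25 of 28 without WT dorsal skin (4329 of 14238). Each of these fits leaves 1 residual degree of freedom, and the count over all genes moved with that of the list.

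A total of 8 genes were past the size rule at all 3 sites: Ifit2, Ifit3, Ifitm1, Bst2, Gbp2, Gbp3, Iigp1 and Parp14. Ifit2, which binds RNA and limits translation, stood at 9.19, 7.44, 8.11 and 4.68 FPKM in WT ear, Koa ear, WT dorsal and WT tail dermis, and at 0.159, 0.234 and 0.211 FPKM in WT ear, Koa ear and WT dorsal epidermis. The 3 epidermal values were all below the 4 dermal ones. In WT ear the ratio of dermis to epidermis was 57.9 (38.7 to 92.3), in WT dorsal skin 38.5 (25.8 to 60.7) and in Koa ear 31.9 (22.1 to 47.3). Its relative Ifit3 stood at 5.07, 5.26, 4.01 and 1.05 FPKM in the same 4 dermal libraries and at 0.0138, 0.189 and 0.141 FPKM in the 3 epidermal ones. The WT ear epidermal value of Ifit3 rests on about 1 fragment, so the ratio of 367 has an interval of 56.1 to 12493. Reads may be divided unevenly between Ifit genes, as between other close relatives in this list (the Ifitm, Oas, Gbp and Ifi200 genes), so single values are uncertain there.

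Ifitm1, unlike Ifitm2 and Ifitm3, was under 1 FPKM in all 3 epidermal libraries. It stood at 14.7, 16.7, 8.26 and 37.8 FPKM in WT ear, Koa ear, WT dorsal and WT tail dermis, and at 0.262, 0.239 and 0.981 FPKM in WT ear, Koa ear and WT dorsal epidermis. The epidermal values correspond to about 6, 4 and 17 fragments. Gbp3, a guanylate-binding GTPase that assembles on the vacuoles of pathogens, stood at 4.67, 6.04, 5.80 and 2.72 FPKM in the 4 dermal libraries and at 0.0508, 0.0695 and 0.544 FPKM in the 3 epidermal ones. Parp14, an ADP-ribosyltransferase, stood between 6.59 and 8.32 FPKM in ear and dorsal dermis, at 2.51 FPKM in tail dermis and between 1.39 and 3.48 FPKM in epidermis. For Parp14 the tail library thus falls within the epidermal range.

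**Figure D2:**
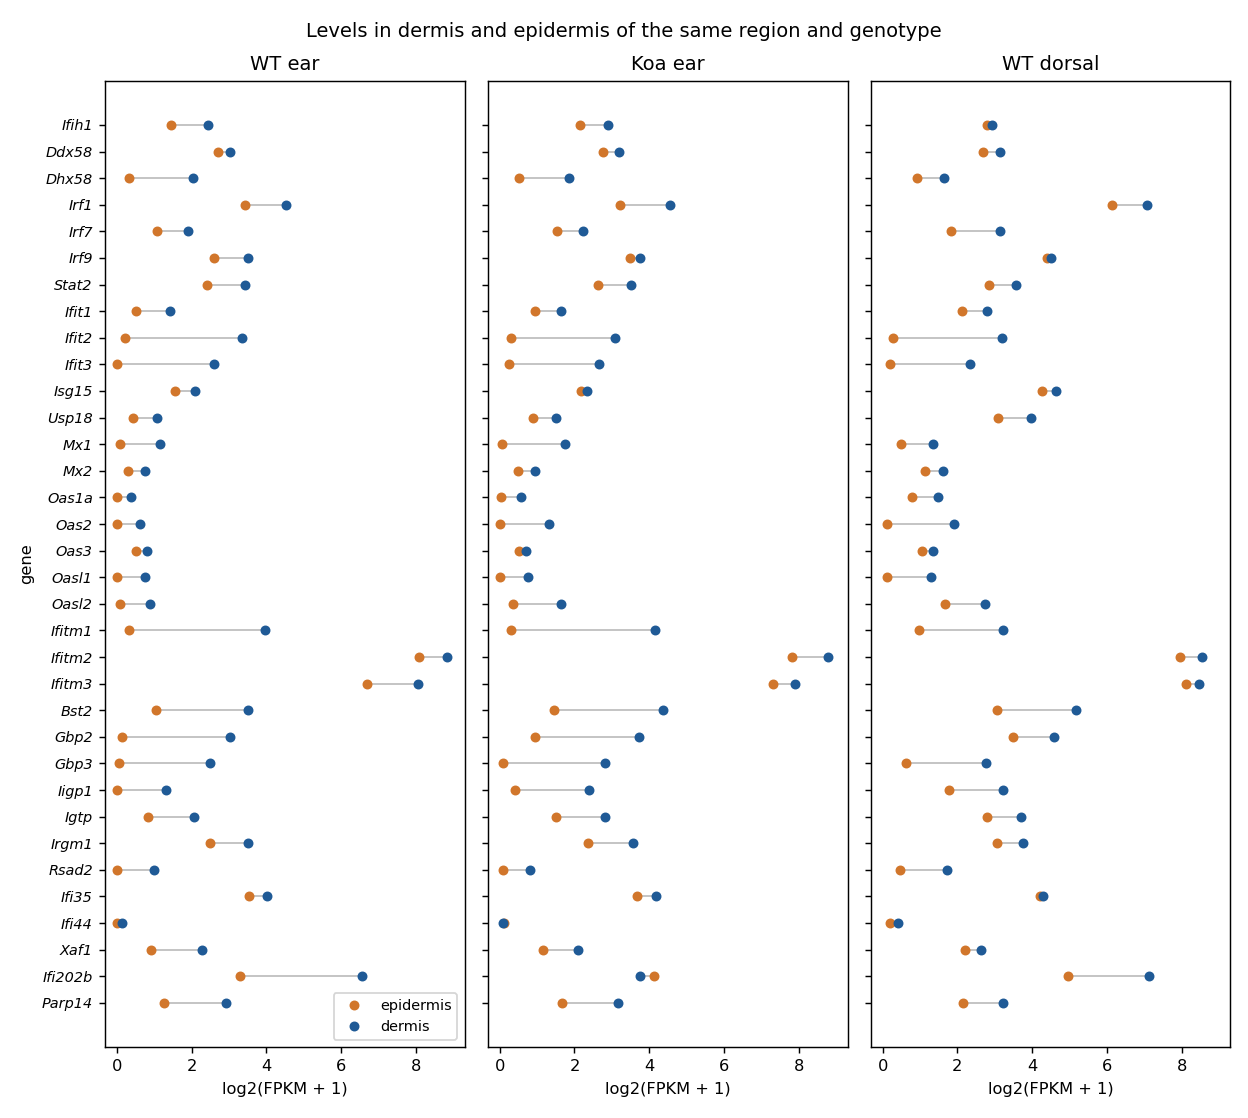
Levels of the 34 genes as log2(FPKM + 1) on the horizontal axis in dermis (blue) and epidermis (orange) of WT ear, Koa ear and WT dorsal skin, 1 library per point. The blue point lies to the right of the orange one for all 34 genes in WT ear and WT dorsal skin and for 32 in Koa ear, the exceptions being Ifi202b and Ifi44, of which Ifi44 turns when libraries are scaled to equal totals.

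Among the sensors of viral RNA, Dhx58 (LGP2) was past the rule in both ears and Ifih1 (MDA5) and Ddx58 (RIG-I) at no site. Ddx58 stood at 7.09, 8.15, 7.76 and 3.7 FPKM in WT ear, Koa ear, WT dorsal and WT tail dermis and at 5.54, 5.83 and 5.37 FPKM in WT ear, Koa ear and WT dorsal epidermis. Its 3 ratios of dermis to epidermis lay between 1.28 and 1.45. Dhx58 differed more (0.247, 0.435 and 0.901 FPKM against 3.11, 2.62 and 2.10 FPKM in dermis). Stat2 and Irf9, which carry the type I signal to the ISRE, were expressed in each library. Stat2 stood between 4.30 and 10.8 FPKM and Irf9 between 5.12 and 21.7 FPKM. Stat2 was past the rule in WT ear (1.01) and Irf9 at no site.

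Immune cell markers moved with this difference, as did those of fibroblasts and endothelium (6 of 6 each, higher in dermis at all 3 sites). Of 9 macrophage markers, 9 were higher in dermis at each of the 3 sites, with summed levels between 1127 and 1529 FPKM in ear and dorsal dermis and between 4.40 and 11.03 FPKM in epidermis. Of 6 T cell markers, 6, 5 and 6 were higher in dermis of WT ear, WT dorsal skin and Koa ear, and without Thy1, which fibroblasts also express, their sum lay between 69.0 and 240.3 FPKM in these dermal libraries and between 0.598 and 4.17 FPKM in epidermis. In WT ear epidermis no macrophage or T cell marker was at 0. The part of these cells in the dermal levels was not tested. Of 10 receptor and signalling genes, 4 were higher in dermis of WT ear and 2 each in WT dorsal skin and Koa ear (background 21.3%, 16.1% and 20.4% higher). Ifnar2, a chain of the type I receptor, was among them at all 3 sites (56.3 against 15.2, 43.1 against 8.39 and 38.6 against 10.1 FPKM).

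The second comparison asked how skin of the back differs from skin of the ear. A set of interferon-stimulated genes was higher in dorsal skin in both layers, and none was lower by the size rule. The widest differences were those of Usp18, Irf1 and Isg15 in dermis and of Gbp2, Isg15 and Irf1 in epidermis. In dermis 12 of 33 genes were higher (background 18.8% of 14234 genes past the rule, 11.7% higher and 7.05% lower), and in epidermis 14 of 23 were higher (background 16.9% of 12500, or 11.5% and 5.47%). The median difference was 0.52 in dermis and 1.43 in epidermis, where that of all genes compared was -0.05 and -0.02. Over all 34 genes of the list the median was 0.52 and 0.77. In WT ear epidermis 14 genes reached 1 FPKM, so the rest of the 23 entered through their dorsal level and could not be lower. With 5 FPKM added in place of 1, 7 of 33 and 8 of 23 genes were past the rule, all higher (background 8.97% and 7.98%, or 5.93% and 5.98% higher). The 2 comparisons share no library with each other, but each shares its WT ear library with the Koa comparison of the same layer and with the layers of WT ear. Higher in both layers were 9 genes: Irf1, Ifit1, Isg15, Usp18, Oasl2, Bst2, Gbp2, Iigp1 and Igtp. These make up 75% of the dermal and 64.3% of the epidermal genes, and over all genes the shared ones made up 46.6% and 54.4%. In the limma fit over both layers, 8 of 33 genes were higher at an adjusted p of 0.05 and none lower (background 4.97% of 14760 genes, 3.2% higher): Irf1, Ifit1, Isg15, Usp18, Oasl2, Bst2, Iigp1 and Igtp. Irf1 had a difference of 2.62 ± 0.13 (SE) and an adjusted p of 0.0166 in limma, higher in 2 of 2 layers, while Gbp2, at 2.45 ± 0.52, had an adjusted p of 0.0722. With 0.1 or 5 FPKM added in place of 1, limma called 5 genes, all higher, where 493 and 282 of all 14760 genes were higher.

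Isg15, a ubiquitin-like protein that is joined to other proteins, and Usp18, the protease that removes it and that also restrains the type I receptor, showed the pattern clearly. Isg15 stood at 23.8 FPKM in dorsal dermis, 18.2 in dorsal epidermis, 3.28 in WT ear dermis, 4.02 in Koa ear dermis, 1.93 in WT ear epidermis, 3.48 in Koa ear epidermis and 5.85 in tail dermis. Both dorsal values exceeded the other 5, and the ratio of dorsal to WT ear was 7.24 (5.57 to 9.52) in dermis and 9.43 (6.84 to 13.3) in epidermis. Usp18 stood at 14.7 FPKM in dorsal dermis, 7.41 in dorsal epidermis, 1.12 in WT ear dermis, 1.87 in Koa ear dermis, 0.347 in WT ear epidermis, 0.846 in Koa ear epidermis and 0.95 in tail dermis. Again the dorsal libraries stood apart from the other 5. The ratios were 13.1 (10.2 to 17.2) in dermis and 21.3 (13.9 to 34.4) in epidermis.

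Irf1, a transcription factor that interferon gamma induces through GAS, stood at 133 FPKM in dorsal dermis, 68.7 in dorsal epidermis, 22.03 in WT ear dermis, 22.3 in Koa ear dermis, 9.69 in WT ear epidermis and 8.26 in Koa ear epidermis. Its highest value was 885 FPKM in tail dermis. Koa and WT ear lay close to each other within each layer. Irf7, which amplifies type I interferon, was past the rule in dermis only, at 7.81 against 2.72 FPKM, with 2.56 against 1.11 FPKM in epidermis, and whether the 2 layers differ in this was not tested. Irf9 was past the rule in epidermis only, with 20.0 against 5.12 FPKM in epidermis and a difference of 0.98, just under the rule, in dermis (21.7 against 10.47 FPKM). Stat2 was past the rule in neither layer (0.14 and 0.44).

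Among the GTPases that act on the vacuoles of intracellular pathogens, Gbp2, Igtp and Iigp1 were higher in both layers by the size rule. Irgm1 passed it in neither, and Gbp3 did not pass it in dermis and was under 1 FPKM in both epidermal libraries (0.544 against 0.0508 FPKM). Gbp2 stood at 23.1 FPKM in dorsal dermis, 10.3 in dorsal epidermis, 7.19 in WT ear dermis, 12.3 in Koa ear dermis, 0.110 in WT ear epidermis, 0.915 in Koa ear epidermis and 6.91 in tail dermis. The WT ear epidermal value rests on about 10 fragments, and the epidermal ratio was 93.3 (51.8 to 200.4), against 3.21 (2.92 to 3.53) in dermis. Iigp1 stood at 8.29, 2.41, 1.496, 4.24, 0.00904, 0.325 and 2.38 FPKM in the same order of libraries. Its WT ear epidermal value is about 1 fragment, so the epidermal ratio of 267 has an interval of 47.1 to 10520. Igtp stood at 12.1 against 3.19 FPKM in dermis and 5.97 against 0.789 FPKM in epidermis. Irgm1, in contrast, stood at 12.6 against 10.4 FPKM in dermis and 7.32 against 4.62 FPKM in epidermis. The promoter window of Irgm1 also holds the ISRE core.

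Bst2 (tetherin), which holds budding virions at the cell surface, stood at 35.0 FPKM in dorsal dermis, 7.36 in dorsal epidermis, 10.46 in WT ear dermis, 19.7 in Koa ear dermis, 1.06 in WT ear epidermis, 1.76 in Koa ear epidermis and 13.5 in tail dermis. Within each layer the dorsal value was the highest. Of the Oas genes, whose enzymes make the oligoadenylates that activate RNase L, Oasl2, a relative in the same family, was higher in both layers (5.62 against 0.852 FPKM in dermis, 2.16 against 0.0591 FPKM in epidermis). Oas1a and Oas2 were higher in dermis only, at 1.82 against 0.294 FPKM and 2.73 against 0.533 FPKM. In epidermis both were listed at 0 in WT ear, and they stood at 0.731 and 0.0949 FPKM in dorsal skin, under the level at which genes were compared. The Mx GTPases were past the rule in neither layer: Mx2 stood at 2.05 against 0.681 FPKM in dermis and 1.20 against 0.234 FPKM in epidermis, and Mx1 at 1.55 against 1.24 FPKM and 0.415 against 0.0670 FPKM.

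Within the Ifit family the members parted. Ifit1 stood at 5.89 FPKM in dorsal dermis against 1.70 in WT ear dermis, 3.45 times (2.87 to 4.17) as much, and at 3.38 against 0.427 FPKM in epidermis, or 7.93 times (5.75 to 11.3). Ifit2 and Ifit3 showed dermal ratios of 0.882 (0.810 to 0.962) and 0.791 (0.657 to 0.951), so their counting intervals lay on the other side of 1. The promoter windows of Ifit1 and Ifit3 each hold 2 ISRE cores, and no window of Ifit2 holds any. Below 0 in dermis stood also Dhx58 (-0.41), Ifitm1 (-0.76) and Ifitm2 (-0.30), and in epidermis Ifitm2 (-0.13) and Ddx58 (-0.04). None of these passed the size rule. Scaled to equal totals, Ddx58 and Stat2 also stood below 0 in dermis and Ifit2 in epidermis.

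Past the rule in epidermis only were Irf9, Ifi202b (29.9 against 8.80 FPKM), Ifitm3 (277 against 102 FPKM), Ifih1 (5.87 against 1.74 FPKM) and Xaf1, a partner of the caspase inhibitor XIAP (3.64 against 0.889 FPKM). In dermis their differences lay between 0.33 and 0.98. The difference between layers was not tested. Rsad2 (viperin), which blocks viral replication, stood at 2.32 against 0.989 FPKM in dermis and 0.370 against 0.00691 FPKM in epidermis, past the rule in neither. Oas3 (1.53 against 0.767 FPKM in dermis) and Oasl1 (1.45 against 0.701 FPKM) did not pass it either. Ifi35 was among the most even genes, between 10.6 and 18.6 FPKM in all 7 libraries. Of the 13 genes with the ISRE core, 6 of 13 compared were higher in dermis and 5 of 9 in epidermis. Of the 14 with a promoter window lacking it, 3 of 13 and 7 of 10 were higher, so the order of the groups was not the same in both layers.

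**Figure D3:**
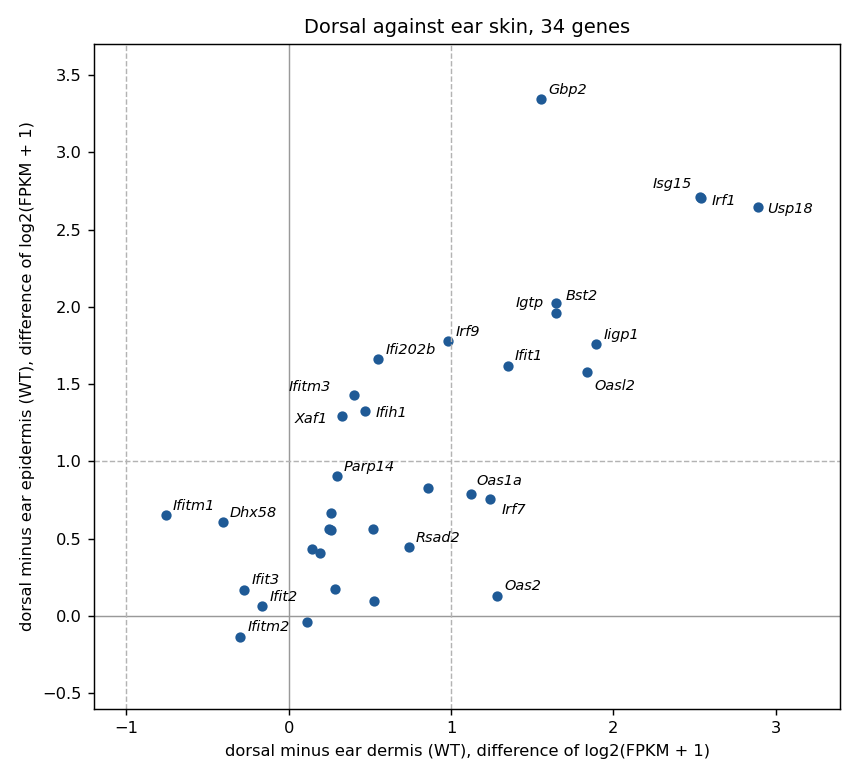
Difference between WT dorsal and WT ear on the log2(FPKM + 1) scale in dermis (horizontal axis) and epidermis (vertical axis), 1 point per gene, all 34 genes with or without 1 FPKM. Dashed lines mark the size rule. Usp18, Irf1 and Isg15 lie at the upper right, Gbp2 lies highest, and Ifitm1, Dhx58, Ifit2, Ifit3 and Ifitm2 lie left of 0.

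Genes of the cell's response to stress, including the stress of cell isolation, moved with this difference. All 9 genes of that list (Fos, Fosb, Jun, Junb, Egr1, Atf3, Hspa1a, Hspa1b and Ier2) were higher in dorsal skin in both layers, with medians of 3.48 in dermis and 3.20 in epidermis. Their summed level was 4678 FPKM in dorsal and 403 FPKM in WT ear dermis, 9249 FPKM in dorsal and 805 FPKM in WT ear epidermis, and 8103 FPKM in tail dermis. T cell markers were higher in dorsal dermis for 4 of 6 genes (median 1.92) and in dorsal epidermis for 2 of 3 compared. Thy1, which dominates their sum, stood at 118 against 191 FPKM in dermis, and the other 5 summed to 240.3 against 69.0 FPKM. Langerhans cell markers were higher in dorsal epidermis for 4 of the 4 compared (summed level 194 against 66.2 FPKM), and in dorsal dermis 2 of 5 were higher and the median was -0.60. Epcam, at 154 against 58.4 FPKM, dominates the epidermal sum. Cd207 was under 1 FPKM in both epidermal libraries (0.905 against 0.224 FPKM) and was not compared there. Macrophage markers had a median of -0.10 in dermis, and mast cell markers were lower there for 5 of 6 genes (summed level 85.3 against 458 FPKM). The part of stress and of these cells in the interferon-stimulated genes was not tested. Keratinocyte markers were also higher in dorsal dermis (40.7% against 8.0% of the epidermal level). Dorsal dermis stood above dorsal epidermis for all 34 genes. With the epidermal share subtracted, 11 genes were past the rule, and Oas1a stood at 0.96. The share of all genes past the rule after subtraction is not given, so this count has no background. After that subtraction 7 genes that stood above 0 stood between -0.31 and -0.05: Ifih1, Ddx58, Stat2, Ifitm3, Irgm1, Ifi35 and Xaf1.

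The rest of the pathway was set beside these genes. Of 21 interferon genes listed, 17 were in the table, and the number above 0 was 8 in dorsal dermis, 4 in dorsal epidermis, 2 in WT ear dermis and 0 in WT ear epidermis. Only Ifng, the gene of interferon gamma, reached 1 FPKM, in dorsal dermis alone. It stood at 3.20 FPKM there, about 104 fragments, against 0.0822 FPKM in WT ear dermis, about 3 fragments, a ratio of 39.0 (12.96 to 192). It stood at 0.0841 FPKM in Koa ear dermis, 0.3 in tail dermis and 0.0629 in dorsal epidermis and was listed at 0 in ear epidermis of both genotypes. Ifnb1 stood at 0.327 FPKM in dorsal and 0.260 in tail dermis and was listed at 0 in the other 5 libraries.

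Among the receptors, the gamma receptor chain Ifngr1 was higher in dorsal epidermis (71.4 against 26.7 FPKM). Of 14 sensors and adaptors, 2 were higher and 1 lower in dorsal dermis: the nucleic acid sensor Zbp1 (8.89 against 2.52 FPKM), the kinase Ikbke (11.8 against 3.86 FPKM) and the RNA receptor Tlr7 (5.16 against 15.4 FPKM), which was the one lower. These shares are near those of all genes, 11.7% higher and 7.05% lower. In dorsal epidermis 2 of 11 were higher, the DNA sensor Aim2 (2.49 against 0.371 FPKM) and Ikbke (14.7 against 6.18 FPKM), where 11.5% of all genes were higher. Of 11 negative regulators 2 were higher in each layer, where 11.7% of all genes in dermis and 11.5% in epidermis were higher. Socs3, an inhibitor of Jak kinases, was higher in both (128 against 15.7 FPKM in dermis, 104 against 10.9 FPKM in epidermis). The phosphatase Ptpn6 was higher in dermis (63.1 against 24.4 FPKM) and the repressor Irf2 in epidermis (18.9 against 7.97 FPKM).

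Interferon-induced genes outside the list of 34 were counted as well. In dorsal dermis 25 of 62 were higher and none lower, and in dorsal epidermis 13 of 45 and none, with medians of 0.77 and 0.74 (background 11.7% and 11.5% higher). The chemokine Cxcl10, which draws T cells, had the widest difference in both layers: it stood at 59.1 against 0.927 FPKM in dermis, or 63.7 times (46.0 to 93.3), and at 30.3 against 0.893 FPKM in epidermis, or 33.9 times (24.3 to 48.2). In epidermis the immunoproteasome genes Psmb9 (101 against 11.3 FPKM) and Psmb8 (116 against 15.5 FPKM) and the class I regulator Nlrc5 (11.5 against 1.32 FPKM) followed. In dermis the next were Ifi204 (51.4 against 6.66 FPKM), Mnda (15.0 against 1.35 FPKM) and Ifi205 (80.3 against 11.9 FPKM), relatives of Ifi202b.

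The third comparison asked how the Koa ear libraries differ from the WT ear libraries. By the size rule few interferon-stimulated genes differed: in dermis 1 of 28 was higher and 1 lower (background 2.78% of 13690 genes past the rule, 1.71% higher and 1.07% lower), and in epidermis none of 16 (background 3% of 12062, or 2.15% and 0.854%). A single gene each way, or none, is near the background. With 0.1 FPKM added in place of 1, 4 genes were past the rule in dermis and 1 in epidermis (background 4.97% and 5.64%). The limma fit over both layers called none of 33 genes (background 0.0339%, 0.0136% higher). Its unadjusted p was under 0.05 for 2 of the 33, Iigp1 and Igtp, and for 825 of all 14760 genes. The 2 genes are thus near the share of all genes. Smaller differences leaned upward. The median was 0.22 in dermis and 0.42 in epidermis, where that of all genes compared was -0.00 and -0.01. Above 0 stood 22 of 28 and 13 of 16 genes of the list, against 49.4% and 49.1% of all genes compared. In WT ear dermis and epidermis 26 and 14 genes reached 1 FPKM. Oas2 and Oasl2 in dermis, and Igtp and Xaf1 in epidermis, entered through their Koa level and could not stand below 0. Over all 34 genes, 25 and 29 stood above 0, with medians of 0.18 and 0.21, but in epidermis 18 of them were under 1 FPKM in both libraries.

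Iigp1 was the gene higher in Koa ear dermis, at 4.24 against 1.496 FPKM, the Koa level being 2.84 times (2.35 to 3.45) that of WT. In epidermis it stood at 0.325 FPKM in Koa, about 31 fragments, and 0.00904 FPKM in WT. The gene lower in Koa ear dermis was Ifi202b, a DNA-binding protein of the Ifi200 family. It stood at 12.5 FPKM in Koa and 93.7 in WT ear dermis, a WT level 7.47 times (6.89 to 8.12) that of Koa. In epidermis it stood at 16.5 FPKM in Koa and 8.80 in WT, or 1.87 times (1.68 to 2.09), and in dorsal and tail dermis at 138 and 43.1 FPKM. Koa ear dermis thus held less Ifi202b than any other dermal library, and of the 3 dermal libraries with an epidermal partner it was the only one below that partner.

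Other genes that stood higher in Koa ear dermis without passing the rule were Bst2 (19.7 against 10.46 FPKM), Igtp (6.10 against 3.19 FPKM), Oasl2 (2.13 against 0.852 FPKM), Oas2 (1.51 against 0.533 FPKM) and Gbp2 (12.3 against 7.19 FPKM). Their counting intervals excluded 1. In dermis the intervals of 14 of the 34 genes excluded 1 upward and those of 4 downward. The share of all genes with such intervals is not given, so these counts have no background. Isg15 (4.02 against 3.28 FPKM) and Ifit1 (2.11 against 1.70 FPKM) had intervals that held 1, from 0.871 to 1.72 and from 0.993 to 1.54. In epidermis Irf9 stood at 10.2 against 5.12 FPKM, a difference of 0.88, Ifih1 at 3.46 against 1.74 FPKM and Igtp at 1.81 against 0.789 FPKM. Gbp2 stood at 0.915 against 0.110 FPKM, with both values under 1 FPKM and a ratio of 8.32 (4.41 to 18.6). Isg15 stood at 3.48 against 1.93 FPKM and Usp18 at 0.846 against 0.347 FPKM, both with intervals above 1. Intervals excluded 1 upward for 18 genes and downward for 2, Irf1 and Ifitm2, again with no background over all genes.

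**Figure D4:**
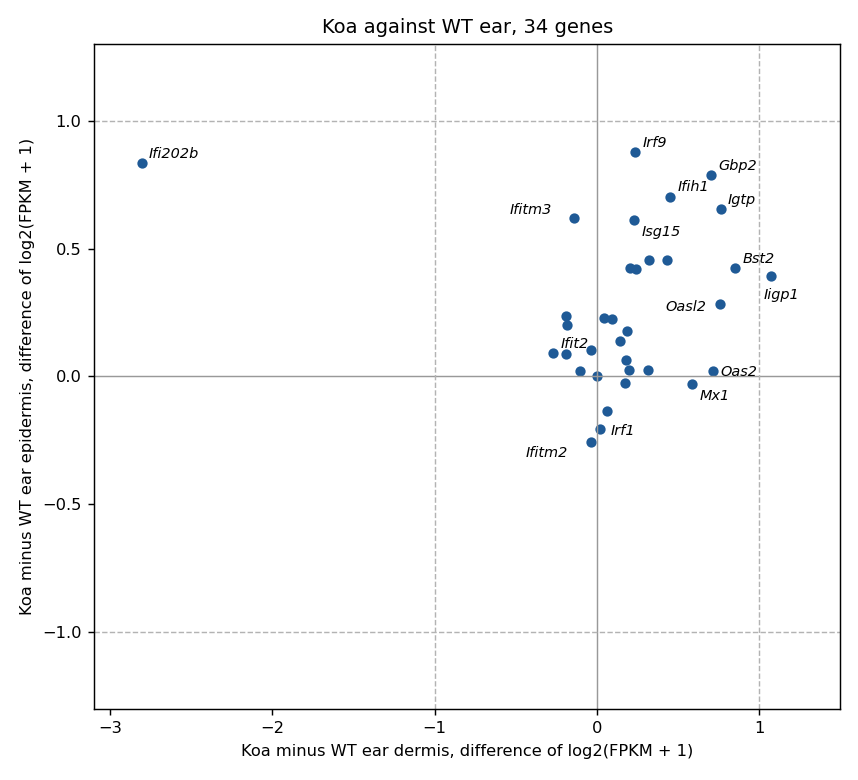
Difference between Koa and WT ear on the log2(FPKM + 1) scale in dermis (horizontal axis) and epidermis (vertical axis), 1 point per gene for all 34 genes, with dashed lines at the size rule. Iigp1 and Ifi202b lie past the rule in dermis, in opposite directions, and no gene passes it in epidermis.

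T cell markers moved with the dermal difference, 2 of 6 being higher in Koa (summed level without Thy1 129.5 against 69.0 FPKM), as were 4 of 8 basal keratinocyte markers (1937 against 780 FPKM). Mast cell markers were lower for 5 of 6 genes (157 against 458 FPKM), and 1 of 9 macrophage markers was lower (1127 against 1529 FPKM). Stress genes were past the rule in neither layer (medians 0.47 and 0.14). The part of these cells in the difference was not tested. Of the other pathway genes, no receptor, kinase or negative regulator was past the rule in either layer. Tlr7 was lower in Koa ear dermis (6.06 against 15.4 FPKM) and Aim2 higher in Koa ear epidermis (2.41 against 0.371 FPKM). In dermis 3 of 57 other interferon-induced genes passed the rule upward (background 1.71%), and 1 of 32 was lower in epidermis (background 0.854%), Ifi27l2a (5.12 against 13.6 FPKM).

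Tail dermis was compared last, since its column differs from the others in rounding and in symbols listed at 0. The median difference of all genes from WT ear dermis was -0.51. Against WT ear dermis 3 of 27 genes were higher, Irf1, Ifitm1 and Ifitm3, and 5 lower, Ifi202b, Ifih1, Parp14, Irgm1 and Ifit3 (background 33.3%, or 6.32% and 27%). Against WT dorsal dermis Irf1, Ifitm1 and Ifitm2 were higher and 20 of 33 lower (background 36.1%, or 7.05% and 29%). With the median of all genes set to 0, the calls were 6 higher and 2 lower against ear, which turns the balance, and 4 higher and 11 lower against dorsal dermis. Irf1 stood at 885 FPKM and Socs3 at 525 FPKM in the tail library, where all 9 stress genes were higher than in WT ear dermis. The summed macrophage markers stood at 72.3 FPKM there, against 1127 to 1529 FPKM in the other dermal libraries.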

How the data were processed

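The authors deposited 1 table of FPKM values. The tools named in the submitters' processing notes are TopHat2 2.0.13 and Cufflinks 2.2.1; the notes also name GRCm38 and mm9, and which build served what, and the annotation, is not given in the sources used here. Columns were matched to samples by title, 2 of them misspelled. Col1a1, Col1a2 and Col3a1, at 0 in some dermal columns although fibroblasts express them, were left out. Differences, size rule and background were computed over the whole table with pandas 2.3.3, and tested on simulated data, as was a limma 3.58.1 fit of log2(FPKM + 1) on layer and site (trend, genes with 1 FPKM in any of 6 libraries), added after seeing the data. Depth was fitted so that values under 0.3 FPKM of genes with 1 coding transcript (GENCODE M21, less 205 nt) fell on whole fragments; 67.9% to 71.8% lay within 0.05 of one. Fragments of a gene use its median coding transcript. The members and lists were chosen with earlier results of these data known. All members are named; of other pathway genes up to 4 per list with the widest differences past the rule, while Ifnb1, Ifnar2 and Hoxc8 were chosen after their values were seen. One item is not reported here. Alternatives were other pseudocounts, filters and scalings, and subtraction of the epidermal share.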

Additional observations from a re-analysis of the deposited data

How the results depend on the processing

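The pseudocount mattered most. At a pseudocount of 5 the number of interferon-stimulated genes past the size rule was 1 for Koa against WT ear dermis (2 at a pseudocount of 1), 7 for dorsal against ear dermis (12), 8 for dorsal against ear epidermis (14), 7, 4 and 6 for dermis against epidermis in WT ear, WT dorsal skin and Koa ear (17, 14 and 15), 11 for tail against dorsal dermis (23) and 4 for tail against ear dermis (8), the last with 3 higher and 1 lower in place of 3 and 5. At a pseudocount of 0.1 it was 4 for Koa against WT ear dermis and 1 for epidermis (0). With at least 5 FPKM required it was 1 for Koa against WT ear dermis and 11 for WT ear dermis against epidermis, as fewer genes were compared. With the median of all genes at 0 it was 8 for tail against ear dermis, 6 of them higher, and 15 for tail against dorsal dermis. Without Irf1 and Ifi202b, an alternative chosen after seeing the data, it was 1 for Koa against WT ear dermis. For the size rule, the other 50 of 65 alternative counts lay within 1.5 times those given above. Equal totals moved the median of all genes compared to -0.27 and -0.46 for dorsal against ear dermis and epidermis, with 12 and 11 genes higher, and to 0.21, 0.34 and 0.13 for the layers. Ddx58 and Stat2 then stood below 0 in dorsal against ear dermis, and Ifit2 in epidermis. The limma fit was added after seeing the data. With site as replicate block 24 genes were higher in dermis (3417 of all 14760 genes), and with no replicate block 14 (2880). Leaving out WT ear gave 8 (1555 of 14577 genes) and leaving out Koa ear 5 (809 of 14588). The limma count for dorsal against ear went from 8 (472 of 14760 genes higher) to 5 at pseudocounts of 0.1 and 5 (493 and 282). The pairing is by site, and the labels name no shared animals. Depth limits the genes under about 10 fragments in ear epidermis, and the depth of the tail library is unknown.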

Other observations

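Relatives of Ifi202b in the Ifi200 family stood apart from it in the ear. Among genes of the list of other interferon-induced genes, Ifi205 stood at 32.7 FPKM in Koa and 11.9 in WT ear dermis, and Mnda at 4.93 and 1.35 FPKM, both past the size rule upward, while Ifi202b was lower in Koa. Ifi204 stood at 12.5 and 6.66 FPKM. Ifi203 stood at 9.204 and 6.35 FPKM, not past the rule. In dorsal dermis Ifi205, Mnda, Ifi204 and Ifi203 stood at 80.3, 15.0, 51.4 and 14.5 FPKM. In the 3 epidermal libraries Ifi205, Mnda and Ifi204 did not exceed 0.845 FPKM and Ifi203 stood between 0.395 and 1.60 FPKM, whereas Ifi202b stood between 8.80 and 29.9 FPKM there. Reads can be divided between such close relatives. Ms4a4c, the third gene of that list higher in Koa ear dermis, stood at 7.40 against 3.07 FPKM.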
